A study of Mus musculus with 6 samples.

Results

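The regions described here were called as ESRRB-bound in naive mouse embryonic stem cells and again 96 h after the naive culture signals were withdrawn, but not at 48 h. They are named 2iL/96 h regions below. The cells were E14, a mouse embryonic stem cell line, and ESRRB was mapped by ChIP-seq, in which DNA that an antibody recovers with a protein is sequenced. The starting cells were kept in N2B27 medium with 2iL, that is the GSK3 inhibitor CHIR99021 at 3 µM, the MEK inhibitor PD0325901 at 1 µM, and LIF. Cells sampled 48 h and 96 h after withdrawal had been moved to N2B27 without 2iL. Each condition had 1 antibody library with 1 deposited peak list and no replicate, so no test between conditions was possible and intervals cover counting error only.

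Overlapping intervals of the 3 lists were merged into 18634 regions. A merged region was kept when it held intervals of the 2iL and 96 h lists and none of the 48 h list. This left 494 regions, which is 2.65% of all merged regions (exact Clopper-Pearson 95% interval 2.43 to 2.89). Of the 6771 merged regions called in 2iL and not at 48 h, the same 494 make up 7.3%. The regions were chosen by their measured peak calls in the 3 libraries, so these counts and all folds below describe the choice and test nothing. A region without a 48 h call need not have lacked ESRRB at that time.

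ESRRB is an orphan nuclear receptor that binds DNA without a known natural ligand. It recognises a nuclear receptor half-site, AAGGTCA, usually in the longer form TCAAGGTCA, and it can bind as a single molecule. In embryonic stem cells it is part of the naive pluripotency network together with NANOG, OCT4 and SOX2, and its gene is switched off as cells leave the naive state. Related receptors are known for binding at genes of mitochondrial energy production.

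**Figure D1:**
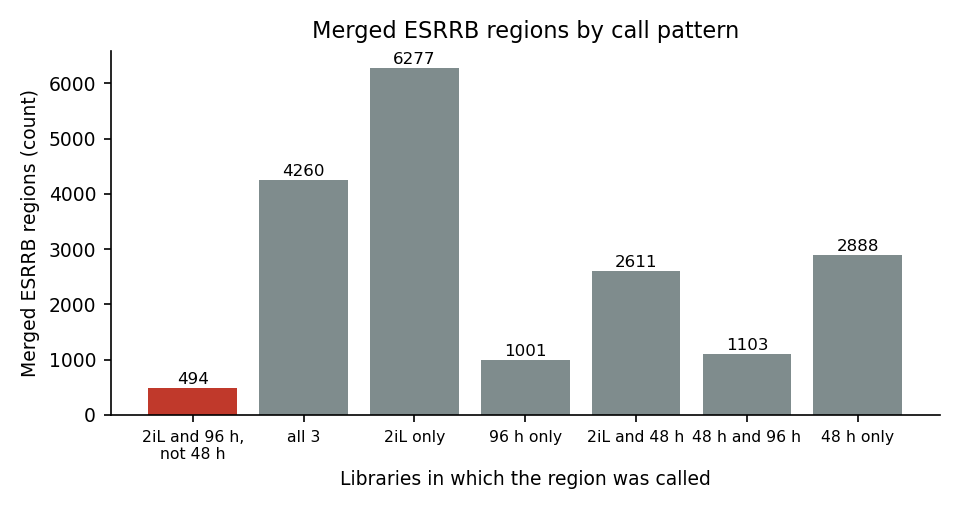
Number of merged ESRRB regions (bar height, count) in each call pattern, with the 2iL/96 h regions in red at the left. The 494 red regions form the smallest pattern, against 4260 regions called in all 3 libraries and 6277 called in 2iL only.

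Reference sequence was at hand only for gene start windows, which run from 250 bases before to 50 bases after a listed start (RefSeq, GRCm38.p6, the same assembly as mm10). A window overlapped 71 of the 2iL/96 h regions, and where several overlapped 1 region the window whose start lay nearest the summit was counted. The half-site AAGGTCA, read on both strands, was found in 4 of these 71 windows (5.63%, 95% interval 1.56 to 13.8). It was found in 66 of 573 windows (11.5%, 9.02 to 14.4) of regions called in all 3 libraries, and in 4.72% of all 32851 listed windows. The intervals of the 2iL/96 h windows and of the windows called in all 3 libraries overlap, and the difference was not tested. The longer form TCAAGGTCA, which contains the half-site, was in 1 of the 71 windows, in 10 of the 573 and in 0.423% of all windows. The stretches that hold a match are shown because they place the half-site relative to the summits. Each is written on the strand of the gene, lies before the start, and has the match in capitals, which reads TGACCTT where the half-site is on the other strand.
Myh7b, chr2:155611167-155611235, plus strand, with the longer form: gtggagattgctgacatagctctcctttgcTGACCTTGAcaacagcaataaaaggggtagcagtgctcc
Sh3tc1, chr5:35740132-35740198, minus strand: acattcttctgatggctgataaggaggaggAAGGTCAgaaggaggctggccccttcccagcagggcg
Slc27a2, chr2:126552774-126552840, plus strand: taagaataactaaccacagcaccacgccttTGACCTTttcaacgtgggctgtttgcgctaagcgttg
Mrps21, chr3:95871541-95871607, minus strand: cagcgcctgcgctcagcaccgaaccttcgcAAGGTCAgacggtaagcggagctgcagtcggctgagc
Mrps21, a second match, chr3:95871653-95871719, minus strand: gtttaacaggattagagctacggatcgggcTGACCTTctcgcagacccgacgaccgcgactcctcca

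At all 4 genes a match lay within 61 bp of the ESRRB summit of both libraries. The centre of the Sh3tc1 half-site was 0 bp from the 96 h summit and 3 bp from the 2iL summit. At Slc27a2, a fatty acid transport gene, the distances were 56 bp and 13 bp. At Mrps21, which encodes a protein of the small mitochondrial ribosomal subunit, the nearer match lay 19 bp and 52 bp away, and the second 131 bp and 164 bp. The longer form at Myh7b, a myosin heavy chain gene, was 61 bp and 41 bp away. A match in a window is a description and not a proven binding site, and the sequence under the other regions was not used here.

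The 2iL/96 h regions were weak ESRRB regions, more so at 96 h than in 2iL. Strength is given as the authors' fold enrichment, the reads at the highest summit of a region over the local background of its own library. At 96 h the median fold of the 494 regions was 3.94 (95% interval of the median 3.85 to 4.09), with a range of 1.31 to 9.79. In 2iL it was 5.46 (5.30 to 5.67), with a range of 1.41 to 19.2. Regions called in all 3 libraries had medians of 5.72 at 96 h and 7.63 in 2iL. Regions called only at 96 h had a median of 3.78 there, and regions called only in 2iL had 5.19 there. The medians of the 2iL/96 h regions therefore lay between those of single-library regions and those of regions called throughout, and much nearer the single-library ones. The other patterns of 2 libraries also lay between, but higher. Regions called in 2iL and at 48 h only had a median of 6.05 in 2iL, and those called at 48 h and 96 h only had 4.53 at 96 h.

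Folds of different libraries are not on one scale, so each region was also given its percentile by fold within its own library. The median percentile was 28.5 at 96 h (25.9 to 32.4) and 42.2 in 2iL (39.0 to 46.4). Regions called in all 3 libraries also had the lower median percentile at 96 h, 64.8 against 71.7 in 2iL. The lists differ in length, with 7018 regions at 96 h and 13767 in 2iL, which limits a comparison of percentiles between them. The weakest 20% of the 96 h list held 181 of the 494 regions (36.6%), and the weakest 20% of the 2iL list held 117 (23.7%). The strongest 20% held 8 of them at 96 h (1.62%) and 67 in 2iL (13.6%). In 59 regions the percentile was above 50 in both libraries, and in another 59 it was 20 or less in both. A single region, near Nanog, was in the strongest 20% of both. With each list cut by fold to the length of the shortest, 496 regions met the rule, of which 212 were among the 494.

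The depth behind these folds can be read from the fold and p-value of a summit, which together give the number of reads there. The 2iL/96 h regions had a median of 36 reads at the 96 h summit (range 16 to 347) and of 49 in 2iL (22 to 331). Local background never fell below 5.04 reads in the 2iL library, 8.09 reads in the 48 h library and 5.84 reads in the 96 h library. The 48 h library thus had the highest background floor of the 3, 1.60 times that of 2iL. The peak names carry a number that is at least 1.31 in each list. It is read here as a mark of closeness to the calling limit, although no source used here says what it measures. In the 10% of 48 h regions with the lowest numbers, the median fold was 3.48 and the median number of reads 42. The same 10% had a median fold of 3.44 from 30 reads at 96 h, and of 4.18 from 33 reads in 2iL. The corresponding 10% of the 96 h list held 89 of the 494 regions (18.02%), that of the 2iL list held 44 (8.91%), and 6 regions were in both. The part that depth and the calling limit had in the missing 48 h calls was not tested.

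**Figure D2:**
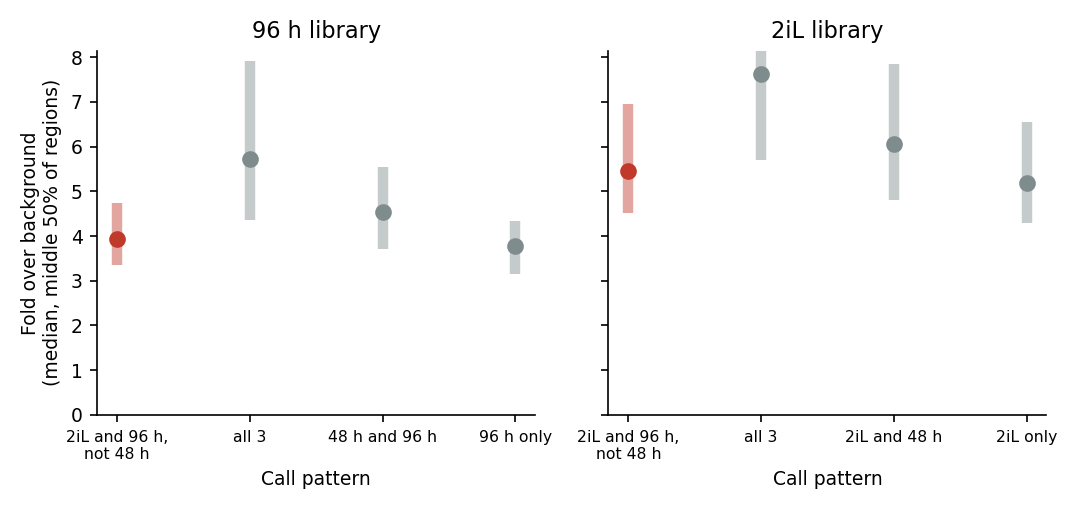
Median fold over background (points) and the middle 50% of regions (bars) by call pattern, in the 96 h library at the left and the 2iL library at the right, with the 2iL/96 h regions in red. The red medians of 3.94 at 96 h and 5.46 in 2iL lie below those of regions called in all 3 libraries, 5.72 and 7.63.

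Summits of the 2 libraries lay close together. The 96 h and 2iL summits of a 2iL/96 h region were a median of 44 bp apart (39 to 50), and 395 of 494 pairs (79.96%, 76.2 to 83.4) lay within 100 bp. For regions called in all 3 libraries the median was 29 bp (28 to 30) and the share within 100 bp 87.7% (86.7 to 88.7). The percentile was higher at 96 h than in 2iL for 164 of the 2iL/96 h regions (33.2%, 29.1 to 37.5), and for 1789 of 4260 (40.5% to 43.5%) of regions called in all 3 libraries.

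Ranked by the lower of its 2 percentiles, the strongest 2iL/96 h region lay 17.2 kb from the homeobox gene Nanog (chromosome 6, 122689727 to 122691071). Its fold was 8.76 at 96 h, from 63 reads, and 10.5 in 2iL, from 107 reads. The nearest 48 h region was 15.9 kb away. A second such region lay 4.55 kb from the start of Nanog (chromosome 6, 122702078 to 122703601), with folds of 4.67 at 96 h and 8.76 in 2iL, and the nearest 48 h region was 3.35 kb from it. Within 50 kb of Nanog, the 2iL list had 6 regions, the 48 h list 3 and the 96 h list 4. Here and below, distances to genes are from the summit of highest fold, so the region itself may overlap the gene. Distances to 48 h regions are from edge to edge.

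The other regions named for a high rank in both libraries reached down to a percentile of 69.2 at 96 h, and lay from inside a gene to 1462 kb away from the nearest. A region inside Grik2, a subunit gene of the kainate glutamate receptor (chromosome 10, 49136156 to 49138499), had folds of 7.29 at 96 h and 8.88 in 2iL. A further one was also nearest Grik2, but 1462 kb away from it (chromosome 10, 47630987 to 47632299), with folds of 6.57 and 10.7. The highest 96 h fold of all, 9.79, was that of a region 43.9 kb from Mbip, a gene for a subunit of a histone acetyltransferase complex (chromosome 12, 56284039 to 56285702), which had 8.63 in 2iL.

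Prps2, which encodes an enzyme of nucleotide precursor synthesis, had a region 1.71 kb away on the X chromosome (167343865 to 167345345), with a fold of 7.16 at 96 h and 10.3 in 2iL. Myh7b had one 83 bp from its start (chromosome 2, 155610744 to 155611602), with folds of 7.01 from 47 reads at 96 h and 9.12 from 66 reads in 2iL. This is the region with the longer half-site shown above. Regions inside Mlip, a gene for a lamin-binding protein of muscle, and Ablim1, an actin-binding protein gene, had folds of 6.98 and 7.60 at 96 h, against 9.59 and 8.31 in 2iL. The Mlip region had no 48 h region within 376 kb, while that of Ablim1 had one 7.62 kb away. The region 21.3 kb from Impa2, an inositol phosphatase gene, had the highest 2iL fold of the 494, 19.2 from 207 reads, and 6.72 from 45 reads at 96 h. The last 3 of this group lay nearest Foxn2 and Arglu1 and inside Slc12a8, at folds of 6.07 to 6.27 at 96 h and of 8.62 to 8.92 in 2iL.

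In 6 regions the 2iL percentile most exceeded the 96 h percentile. The clearest was 28.3 kb from Tbx3, a T-box factor of the naive network (chromosome 5, 119712485 to 119713613), with a fold of 2.69 at 96 h and 13.1 in 2iL. It had 48 reads at the 96 h summit and 166 in 2iL, and a 48 h region lay 1.98 kb away with a fold of 2.65. Regions at Ubqln1, a gene of protein degradation, Llgl2, a cell polarity gene, and Ppp1cc, a phosphatase gene, had folds of 3.07, 2.94 and 2.94 at 96 h, against 13.0, 11.6 and 11.9 in 2iL. The other pair, at Pradc1 and the olfactory receptor gene Olfr52, had 2.86 and 3.02 at 96 h, against 11.1 and 9.78 in 2iL. All 6 were below percentile 10 of the 96 h list by fold and in the strongest 20% of the 2iL list.

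The reverse order was found most clearly inside Stag1, a cohesin subunit gene (chromosome 9, 100605277 to 100606381), where the fold was 6.04 at 96 h from 93 reads and 3.09 in 2iL from 44 reads. Cd59a, a gene for an inhibitor of complement, had 6.33 at 96 h and 3.66 in 2iL, and the homeobox gene Prrx2 had 5.70 and 3.97. The regions nearest Wscd2, Nol10 and Dtwd2 had folds of 6.20, 7.61 and 8.15 at 96 h and of 4.30, 4.69 and 4.44 in 2iL. At these 6 the fold was higher at 96 h than in 2iL, which was so for 75 of all 494 regions. It was so for 1156 of the 4260 regions called in all 3 libraries. Folds of the 2 libraries are not on one scale, and by percentile 164 of the 494 were higher at 96 h.

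**Figure D3:**
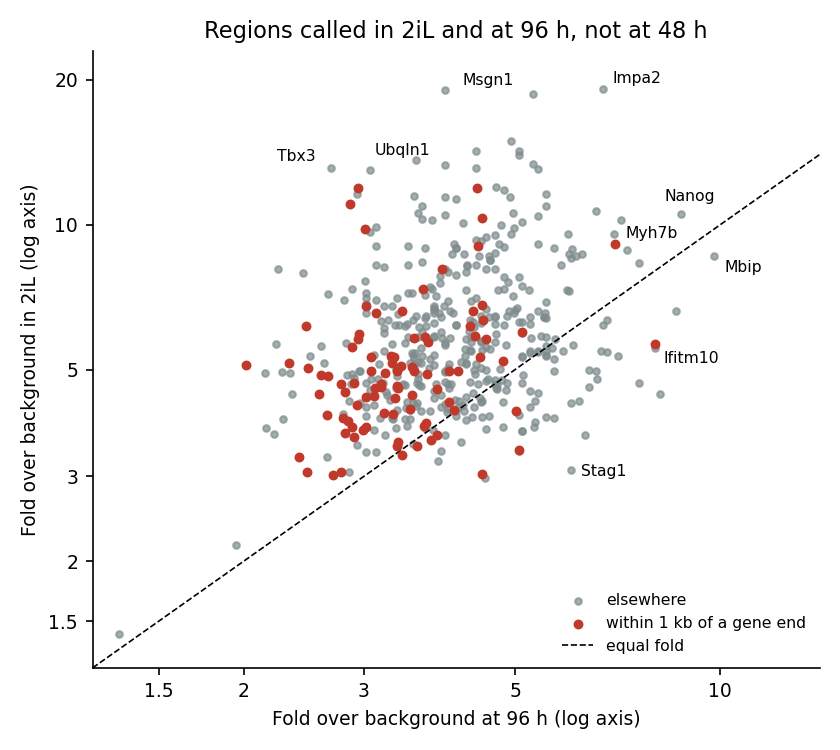
Fold over background at 96 h (horizontal, log axis) against that in 2iL (vertical, log axis) for the 494 regions, each a point, in red where the summit was within 1 kb of a protein-coding gene end. Most points lie above the dashed line of equal fold, with 75 below it, and Nanog and Mbip stand at the upper right. Folds of the 2 libraries are not on one scale, so the line does not mark equal binding.

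Taken over all strengths, the 2iL/96 h regions lay at gene ends more often than regions called in all 3 libraries or in 2iL only. Those at gene ends had the lower folds, as was also so in regions called in all 3 libraries. A gene end is either end of the annotated span of a protein-coding gene. The summit was within 1 kb of one in 90 of 494 regions (18.2%, 95% interval 14.9 to 21.9). The share was 13.2% (12.2 to 14.2) among regions called in all 3 libraries, 9.32% (8.61 to 10.1) among those called in 2iL only and 13.4% (11.3 to 15.7) among those called at 96 h only. The interval of the 2iL/96 h regions lies above the first pair and overlaps that of the 96 h only regions. With a q-value of 1e-05 or less required in all 3 lists, the shares were 17.7% (14.2 to 21.6) in the 2iL/96 h regions and 13.2% (12.2 to 14.3) in regions called in all 3 libraries, and these intervals touch. The start table covers the chromosomes of 477 of the 494 regions. Measured from listed gene starts alone, the share within 1 kb was 14.9% (11.8 to 18.4) in the 2iL/96 h regions, 12.8% (11.8 to 13.8) in regions called in all 3 libraries and 8.88% (8.17 to 9.62) in those called in 2iL only, so that only the last interval lies apart.

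The share at gene ends was higher in the weakest 20% of the 96 h list than in the next 20%, for each of the patterns compared. In the weakest 20% of the 96 h list, 59 of 181 of the 2iL/96 h regions (32.6%, 25.8 to 39.9) lay at a gene end, as did 25.3% (21.3 to 29.6) of regions called in all 3 libraries and 21.1% (17.4 to 25.3) of those called only at 96 h. In the next 20% the shares were 12.7% (7.57 to 19.5), 17.7% (14.8 to 20.9) and 8.21% (5.48 to 11.7). In the middle 20% they were 10.5% (5.56 to 17.7), 13.3% (11.0 to 15.8) and 4.79% (2.09 to 9.22). Of these 3 steps, the share of the 2iL/96 h regions exceeded that of regions called in all 3 libraries only in the weakest. The intervals of these 2 patterns overlapped in each of the 3. In the fourth 20%, 1 of 57 of the 2iL/96 h regions lay there (1.75%, 0.0444 to 9.39). This interval lies below that of regions called in all 3 libraries, 11.4% (9.60 to 13.5).

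The local background was higher at gene ends. The 90 regions at gene ends had a median background of 12.6 reads at 96 h (11.2 to 13.9), against 6.94 (6.62 to 7.29) at the 404 elsewhere. Their median number of reads at the 96 h summit was 42, against 34.5 elsewhere, while the median fold was 3.34 (3.13 to 3.53) against 4.09 (3.98 to 4.28). In 2iL the background was 9.59 and 7.73 reads and the median fold 4.89 and 5.66. Regions called in all 3 libraries had the same order at 96 h. Their median background was 13.9 reads at gene ends and 7.88 elsewhere, and their median reads were 69 and 53. Their median folds were 4.83 and 5.84. In both groups the regions at gene ends had the lower median fold at 96 h, and the higher median background and median reads. The fold is itself the ratio of reads to background, so these values are not independent. The part of background in the folds and in the calls was not tested.

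**Figure D4:**
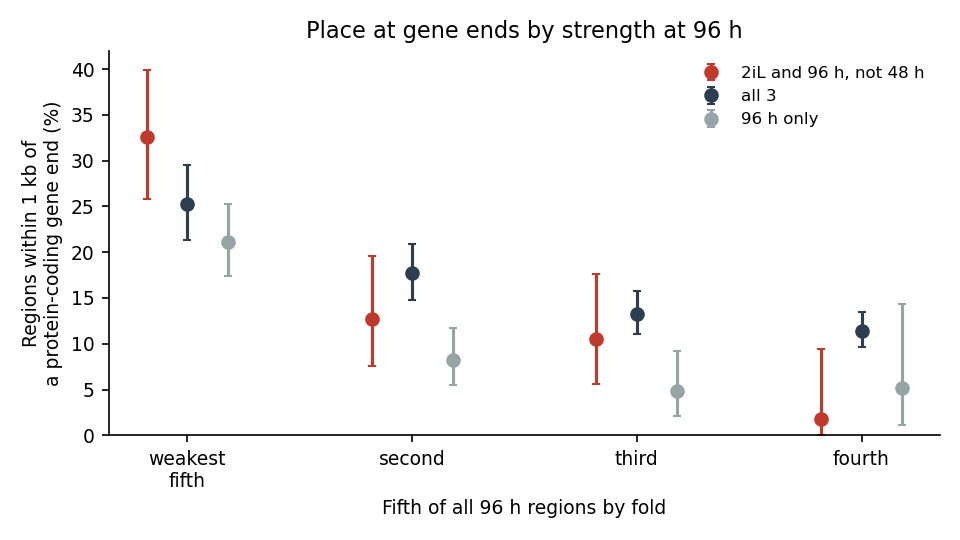
Share of regions within 1 kb of a protein-coding gene end (vertical, percent, with exact 95% intervals) in 20% steps of the whole 96 h list by fold, weakest to strongest, for 2iL/96 h regions (red), regions called in all 3 libraries (dark) and regions called only at 96 h (grey). Among the steps drawn the share is highest in the weakest, 32.6% for the red points. The strongest step is not drawn, and there 1 of 8 of the 2iL/96 h regions, 103 of 1277 regions called in all 3 libraries and 4 of 12 called only at 96 h lay at a gene end.

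Away from gene ends, 157 of the 494 regions (31.8%) were inside a protein-coding gene, 157 were outside and up to 50 kb from the nearest, and 90 were farther than that. A summit lay inside a gene span, ends included, in 202 regions (40.9%, 36.5 to 45.4), against 46.6% (45.1 to 48.1) of regions called in all 3 libraries and 49.3% (48.0 to 50.5) of those called in 2iL only. Start windows that overlapped the 2iL/96 h regions were rich in G and C, with a median of 61.3% (58.0 to 65.3), close to the 60.7% of windows in regions called in all 3 libraries and above the 52.7% of all listed windows. The observed over expected number of CG pairs was at least 0.6 in 48 of 71 windows (67.6%, 55.5 to 78.2), in 67.4% of windows in regions called throughout, and in 35.8% of all windows.

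By rule, 8 regions at gene ends were named. Besides Myh7b, the region 615 bp from Ifitm10, a gene of the interferon-induced transmembrane family (chromosome 7, 142373782 to 142374831), had a fold of 8.03 from 66 reads at 96 h and 5.66 from 39 reads in 2iL. Cd180, a gene for a Toll-like receptor family protein, had folds of 5.11 and 5.99, and Fcer1g, an Fc receptor chain gene, 4.54 and 5.80. Srek1ip1, a splicing protein gene, Rhov, a small GTPase gene, Atad2b, a bromodomain gene, and the zinc finger gene Zfp870 had folds of 4.42 to 4.49 at 96 h. In 2iL they had 6.35, 6.82, 10.4 and 9.03. These genes serve quite different functions, and blood cell receptor genes were among them.

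A 48 h region was often near although none overlapped. It lay within 5 kb of 61 of the 494 regions (12.3%, 9.58 to 15.6) and within 50 kb of 271 (54.9%, 50.4 to 59.3). Regions called in 2iL only had 11.98% (11.2 to 12.8) within 5 kb, and regions called only at 96 h 14.7% (12.5 to 17.0), so all 3 intervals overlap. The median gap was 39.2 kb. Within 500 bp, 8 regions had a 48 h region (1.62%). The nearest cases were 28 bp from a 48 h region for one 327 kb from Poteg, 131 bp near Fgr, 189 bp at Gpx4, 257 bp near Txn2 and 259 bp near Atp1b1, with folds of 3.03 to 6.07 at 96 h and of 3.37 to 9.57 in 2iL. On the other side of the rule, the regions called in all 3 libraries with the smallest overlap with a 48 h interval shared 258 to 390 bp with it. Among these, the region inside Kctd21 shared 338 bp and had a 2iL fold of 5.35, a 48 h fold of 2.74 and a 96 h fold of 3.95. That inside Hs3st5 had 4.17, 3.58 and 2.86 in the same order. Those nearest Gm2244, Pex2 and Kctd16 were very weak, with folds of 1.45 to 2.04 over the 3 libraries. Overlap was ranked in bp, and these 3 were narrow regions that the overlap covered almost in full. They are therefore not borderline cases.

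**Figure D5:**
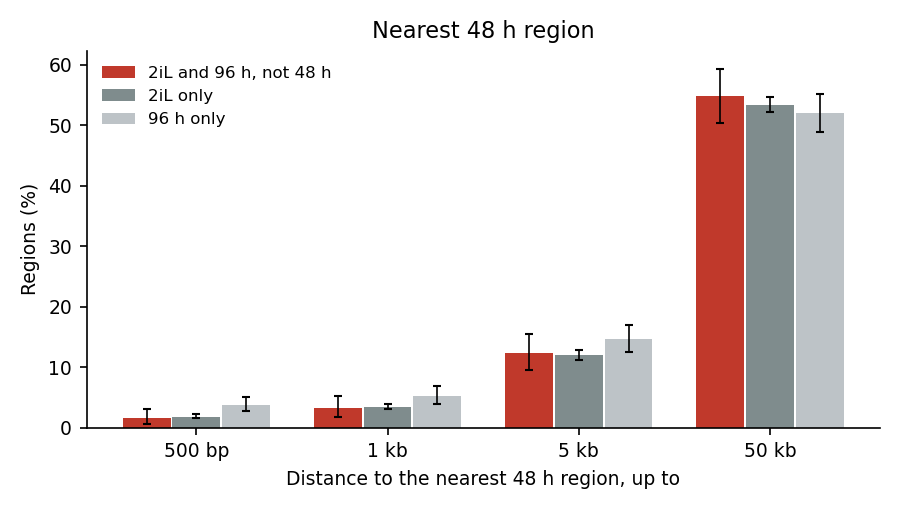
Share of regions (bars, percent, with exact 95% intervals) whose nearest 48 h region lay within 500 bp, 1 kb, 5 kb or 50 kb, for the 2iL/96 h regions (red), regions called only in 2iL (dark grey) and regions called only at 96 h (light grey). At 50 kb the shares are 54.9%, 53.4% and 51.9%, with overlapping intervals.

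Within 50 kb, 36 of the 2iL/96 h regions (7.29%, 5.16 to 9.95) had another of the 494, 152 (30.8%, 26.7 to 35.0) had one of the 4260 regions called in all 3 libraries, and 352 (71.3%, 67.0 to 75.2) had a merged region of any other pattern. These shares rest on very different numbers of possible neighbours and were not compared. The 2iL/96 h regions were spread over chromosomes 1 to 19 and X, at 1.64% to 3.35% of the merged regions of each, and all these intervals overlap.

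Within 50 kb of a protein-coding gene span lay 404 of the 494 regions, and 1019 of 21887 protein-coding genes (4.66%) had such a region. Of the 12252 genes with any 2iL region in that window it was 8.32%, and a region can count for several genes. For 300 of the 1019 genes there was no 48 h region in that window. Gene lists of pluripotency, lineage, signalling, nuclear receptor and mitochondrial genes held 341 genes, of which 36 (10.6%) had a 2iL/96 h region. Of the 263 listed genes with a 2iL region it was 13.7%. The 36 genes drew on 33 regions.

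Of 22 naive pluripotency genes 5 (22.7%, 7.82 to 45.4) had a 2iL/96 h region. Of the 14 core pluripotency genes 0 did (interval up to 23.2%), so the intervals overlap. The share was 4.66% over all protein-coding genes and 8.32% over those with a 2iL region within 50 kb. Of the naive genes 21 had such a 2iL region, and of the core genes 14. Besides Nanog and Tbx3, Dppa5a, a gene for an RNA-binding protein of naive cells, had a region that overlapped it, with the summit 1.32 kb away. Its folds were 5.07 at 96 h and 6.28 in 2iL, and a 48 h region lay 756 bp beside it. Jam2, a cell adhesion gene, and Socs3, an inhibitor of LIF signalling, had weaker regions 38.7 and 35.1 kb away. Their folds were 3.30 and 2.28 at 96 h and 5.15 and 3.95 in 2iL. The Jam2 region lay much nearer to Mrpl39, a mitochondrial ribosomal protein gene, with the summit 189 bp away. All 5 genes also had other regions within 50 kb that were called at 48 h.

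Formative genes are raised on the way out of the naive state, and 2 of 20 had such a region (exact interval 1.23% to 31.7%), against 4.66% of all protein-coding genes. That of Tcf15, a helix-loop-helix factor gene, lay 1.61 kb away and had folds of 3.34 at 96 h and 6.18 in 2iL. That of Tcf7l1, a repressor of WNT targets, lay 27.8 kb away and had 3.33 and 5.32.

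Of 30 germ layer genes 4 (13.3%, 3.76 to 30.7) had one, against 4.66% of all protein-coding genes. The region 7.72 kb from Msgn1, a factor of presomitic mesoderm (chromosome 12, 11216236 to 11217860), was among the strongest of the 494 in 2iL, with a fold of 18.7 from 134 reads, and had 5.31 from 36 reads at 96 h. T, which encodes the mesoderm factor Brachyury, had a region 25.4 kb away (chromosome 17, 8408752 to 8409662) with folds of 3.58 at 96 h and 6.45 in 2iL. Of the regions within 50 kb of T, 3 were called in 2iL, none at 48 h and 2 at 96 h. Snai1, a factor of epithelial to mesenchymal transition, had a region across 1 end of the gene with folds of 3.22 at 96 h and 4.91 in 2iL, and Msi1, a neural RNA-binding protein gene, one inside the gene with 4.25 and 8.27. In the trophoblast list 1 of 15 genes (6.67%, 0.169 to 31.9) had one, against 4.66% of all protein-coding genes. This was Tfap2a, with a region inside the gene and folds of 3.35 at 96 h and 4.58 in 2iL. No 48 h region lay within 50 kb of Tfap2a.

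Of 17 targets of the signals that 2iL sets, 4 (23.5%, 6.81 to 49.9) had a 2iL/96 h region. The share was 4.66% over all protein-coding genes and 8.32% over those with a 2iL region within 50 kb, which 15 of the 17 had. Spry2, a feedback inhibitor of receptor tyrosine kinases, had one 4.18 kb away with folds of 4.07 at 96 h and 9.10 in 2iL. Cdx1, a WNT target, had 4.34 and 6.61, Fos, an immediate early gene, 3.62 and 4.65, and Socs3 is given above. Each also had regions called at 48 h within 50 kb.

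Among 48 nuclear receptor genes 4 had one, namely Nr0b2, Nr1i3, Rarb and Nr2f2. Nr0b2, which encodes an atypical receptor without a DNA-binding domain, had folds of 5.51 at 96 h and 6.43 in 2iL, 44.6 kb away and 739 bp from a 48 h region. Rarb, a retinoic acid receptor gene, had 4.53 and 6.67, and Nr2f2, an orphan receptor gene, 3.51 and 3.95 with no 48 h region within 50 kb. The region near Nr1i3 is that of Fcer1g. Of 18 coregulator genes 1 (5.56%, 0.141 to 27.3) had one, and this interval holds both shares over all genes. This was Ncoa4, with a region 361 bp away and folds of 2.66 at 96 h and 4.85 in 2iL.

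Genes of the mitochondrial respiratory chain and ATP synthase numbered 8 of 87 (9.20%, 4.05 to 17.3), and mitochondrial ribosomal protein genes 8 of 78 (10.3%, 4.53 to 19.2). Over all protein-coding genes the share was 4.66%, and over those with a 2iL region within 50 kb 8.32%. Both intervals hold both of these shares. Uqcrfs1, which encodes the iron-sulfur subunit of complex III, had a region at its start (chromosome 13, 30544436 to 30545565) with folds of 3.02 from 48 reads at 96 h and 6.77 from 60 reads in 2iL. Uqcrq, another complex III subunit gene, had 2.80 and 3.97, with the summit 107 bp away. No 48 h region lay within 50 kb of either. Cox7a1 and Cox7a2l, which encode a cytochrome c oxidase subunit and a related protein that joins respiratory complexes, had 2.71 and 2.33 at 96 h, against 3.01 and 5.16 in 2iL. Cox6a1, Atp5h and Ndufc1 had regions with folds of 2.41 to 4.25 at 96 h and 3.07 to 8.27 in 2iL. The Cox6a1 region is the one inside Msi1 given above.

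The ribosomal protein genes were Mrpl37, Mrps10, Mrpl27, Mrpl45, Mrpl39, Mrps21, Mrpl4 and Mrpl58. Their folds were 2.41 to 5.25 at 96 h and 3.29 to 8.93 in 2iL, highest at 96 h near Mrpl37 and in 2iL near Mrps10. The summit lay 8 bp from Mrps21 and 189 bp from Mrpl39, with folds of 3.02 and 3.30 at 96 h and 4.39 and 5.15 in 2iL. The Mrpl39 region is the one counted for Jam2 above, and Mrpl58 and Atp5h also share a region. By rank within the 96 h list, the regions at genes of both mitochondrial lists ran from percentile 2.34 at Cox7a2l to 57.7 near Mrpl37.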

How the data were processed

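ESRRB ChIP-seq was available for 3 antibody libraries of E14 cells, and 3 input libraries were not used here. Per the submitters' processing notes, bcl2fastq 2.20.0.422, BWA, SAMtools, Picard and MACS2 were used with build mm10; their roles, the calling threshold and any use of inputs are not stated. The authors deposited, for each summit, a fold (the ratio of reads to local background), a p-value and a q-value as −log10, a score and a summit offset. Library read totals are unknown.

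Each unique interval took its highest-fold summit. Intervals overlapping by at least 1 bp were merged, and bedtools 2.31.1 gave the same pattern counts. With a pseudocount of 1 in the fold, reads at summits were recovered from fold and p for 99.8% to 99.9% of regions as whole numbers within 0.05. Genes came from RefSeq GRCm38.p6 and all 341 listed symbols matched; the values of 1 listed gene are not reported here. Shares carry exact Clopper-Pearson 95% intervals, medians order-statistic intervals. Merging and read recovery were tested on simulated data. Named regions followed a rule: highest by the lower of both percentiles, largest percentile differences, nearest to the overlap limit, at gene ends, and at listed genes. The regions and lists were chosen with earlier results of these data known. Alternatives covered thresholds, list length, overlap and gene windows.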

Additional observations from a re-analysis of the deposited data

How the results depend on the processing

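No paired analysis was possible because each condition has 1 library, which also leaves no replicate to leave out. Of 63 values under alternatives, 46 stayed within 1.5 times the count or within the 95% interval and 17 moved. The number of 2iL/96 h regions was 437 to 633 under all 6 alternatives, but which regions were meant changed. Lists of equal length gave 496 regions that covered 212 (42.9%) of the 494. The median fold was then 4.24 at 96 h and 7.33 in 2iL, the median percentiles 36.7 and 68.8, and 85.7% lay within 50 kb of a gene. These percentiles are on the scale of the whole lists, and since the cut by fold removes the weaker regions, most of all from the longer 2iL list, higher folds and percentiles follow from its construction. A stricter q of 1e-05 in 2iL and at 96 h kept 437, with a median fold of 4.13 and percentile of 33.4 at 96 h. Where libraries had to share 50% of each interval, 633 regions had median folds of 4.38 at 96 h and 5.73 in 2iL, percentiles of 39.6 and 47.2, a gene-end share of 13.7%, and 46.6% with a 48 h region within 5 kb. Summits within 200 bp gave 25.9% for that last share, since a 48 h interval may overlap under both definitions. The gene-end share was 15.7% to 18.6% otherwise, except 14.9% from listed starts, a mark added after the data were seen. With equal lists it was 15.7% (12.6 to 19.2), against 10.7% (9.57 to 11.9) in regions called in all 3 libraries. A window of 10 kb left 21 listed genes and the nearest gene only 22, in place of 36. The share of start windows with AAGGTCA, 5.63% in the main setting, was 11.9% (5.86 to 20.8) with equal lists. It was 4.84% to 8.33% under the other alternatives. The motif in whole regions and within 100 bp of summits was not run, as sequence was at hand for start windows only. Depth and the calling limit restrict every statement that a region was not called at 48 h.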

Other observations

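Some values fell outside the named groups and were chosen after they were seen. The region with the lowest folds of the 494, 1031 kb from Lrrc4c (chromosome 2, 98662192 to 98662980), had 1.31 at 96 h from 347 reads and 1.41 in 2iL from 331 reads, the highest read numbers of all. At folds this low, the local background was nearly as high as the reads. No region was left out here for a high background. A region 60.3 kb from Rnf32 (chromosome 5, 29131605 to 29133079) reached a fold of 8.62 at 96 h and of 6.63 in 2iL, and the nearest 48 h region was 215 kb away. Sox15, a gene of the SOX family expressed in embryonic stem cells, had a weak region 450 bp from its start, with folds of 2.64 at 96 h and 4.02 in 2iL. A region inside Ube2u, a ubiquitin-conjugating enzyme gene, had folds of 4.93 at 96 h and 14.9 in 2iL. Its nearest 48 h region lay 257 kb away. Within 10 kb of a 2iL/96 h region lay 8 listed miRNA hairpins, Mir1900 nearest at 1.23 kb.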
